A study of Mus musculus with 18 samples.

Results

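The genotype difference in the oxygen response is the amount by which the change from 20% to 1% O2 in *Hif1a* cKO tendon fibroblasts (TFs) differed from the same change in Ctrl TFs. For each gene it was computed as the interaction, the log2 fold change of cKO TFs (1% against 20% O2) minus that of Ctrl TFs, so a positive value is a higher response in cKO TFs and a negative value a lower one. It rested on 12 of the 18 RNA-seq libraries of the series, 3 in each of 4 groups, and on 15850 genes of the 55491 rows in the count table, those that passed the filter on low counts. Ctrl TFs came from Cre-negative mice, labelled wild-type. The paper describes its Cre-negative control mice as *Hif1a* fl/fl. The cKO TFs came from *Hif1a* fl/fl mice that carry Scleraxis-Cre, a recombinase driven by the promoter of the tendon gene *Scx*. All TFs crawled out of collagen gels set with tail tendon of adult mice of both sexes, were passaged, and then spent 4 days on plastic in 20% O2 or 1% O2. In a parallel arm, Ctrl TFs were treated with Cre gesicles, vesicles that carry Cre into cells, at both O2 levels (6 libraries). If these Ctrl TFs were fl/fl, the gesicles could delete *Hif1a* in them, which was not tested. In cKO TFs the deletion is limited to cells in which *Scx* was active. A count per gene does not isolate the floxed part of *Hif1a*.

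HIF-1α, the protein made from *Hif1a*, is hydroxylated and degraded when oxygen is plentiful and is stable when oxygen is scarce. It then pairs with ARNT, binds short hypoxia response elements near its target genes and raises the enzymes of glycolysis, glucose and lactate transporters, and factors that lower mitochondrial oxygen use. HIF-2α, made from *Epas1*, shares many targets, and tendon, which has few vessels, is a tissue in which such a switch is studied.

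Of the promoters of genes described here, 5 are printed, to show the letters that HIF can bind beside genes whose oxygen response was weaker in cKO TFs (*Slc16a3*, *Pfkl*, *Pdk1*), of like estimate (*Bnip3*) or opposite in sign (*Atoh8*). They are the 250 bases before the RefSeq start on GRCm38.p6, 5′ to 3′ along the gene, and capitals mark ACGTG or GCGTG read on either strand (CACGT and CACGC when on the other). For *Pdk1*, the first of 2 RefSeq windows is given. The positions are, in order, chr11:120948817-120949066 on the plus strand, chr10:78009808-78010057 on the minus strand, chr2:71872974-71873223 on the plus strand, chr7:138909507-138909756 on the minus strand and chr6:72235578-72235827 on the minus strand.
Slc16a3: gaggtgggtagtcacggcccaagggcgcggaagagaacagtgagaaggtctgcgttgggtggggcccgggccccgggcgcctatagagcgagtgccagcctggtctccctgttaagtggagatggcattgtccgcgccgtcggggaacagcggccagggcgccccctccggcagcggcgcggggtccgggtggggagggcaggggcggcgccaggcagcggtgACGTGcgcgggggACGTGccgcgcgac
Pfkl: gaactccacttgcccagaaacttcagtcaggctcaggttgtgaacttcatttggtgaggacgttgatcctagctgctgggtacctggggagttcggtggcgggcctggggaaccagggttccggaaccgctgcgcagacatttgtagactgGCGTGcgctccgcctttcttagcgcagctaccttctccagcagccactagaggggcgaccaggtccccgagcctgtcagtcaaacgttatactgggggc
Pdk1: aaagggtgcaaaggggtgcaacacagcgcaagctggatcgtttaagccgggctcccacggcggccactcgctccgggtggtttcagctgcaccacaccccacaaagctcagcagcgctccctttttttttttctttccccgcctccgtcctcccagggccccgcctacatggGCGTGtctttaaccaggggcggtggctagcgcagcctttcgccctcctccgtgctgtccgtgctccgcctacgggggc
Bnip3: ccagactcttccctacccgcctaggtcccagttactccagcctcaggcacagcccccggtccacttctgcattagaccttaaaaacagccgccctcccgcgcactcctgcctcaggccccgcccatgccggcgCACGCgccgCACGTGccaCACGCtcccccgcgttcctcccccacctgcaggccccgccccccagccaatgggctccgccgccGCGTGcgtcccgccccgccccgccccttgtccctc
Atoh8: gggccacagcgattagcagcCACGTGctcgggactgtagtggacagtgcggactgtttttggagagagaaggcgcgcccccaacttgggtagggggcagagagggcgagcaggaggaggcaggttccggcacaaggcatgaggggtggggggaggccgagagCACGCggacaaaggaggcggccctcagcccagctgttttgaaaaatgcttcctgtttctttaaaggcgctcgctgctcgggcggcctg
The window held 2 matches for *Slc16a3*, 1 for *Pfkl*, 1 for *Pdk1*, 5 for *Bnip3* and 3 for *Atoh8*, where a match on each strand of CACGTG counts as 2 that overlap. Over all tested genes with a promoter in the table, 6696 of 11074 (60.5%) held at least 1 match. The share was 52.3% (124 of 237) for genes that rose in 1% O2 with a weaker response in cKO TFs and 59.6% (115 of 193) for those with a stronger one. It was 83.3% (15 of 18) for the glycolysis list and 93.1% (27 of 29) for the HIF target list. A match describes the letters only, not a bound site.

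Library totals of the 4 groups ranged from 26967440 to 42964226 counts, except replicate 1 of cKO TFs in 1% O2 with 6857558, where 3 counts correspond to 0.4375 CPM (counts scaled to a common library size) against 0.0698 to 0.111 CPM in the others. The summed level of the tendon fibroblast markers was 4300 to 12900 CPM in every library, and all 8 were detected. Markers of other cell types were present at low sums. Those of skeletal muscle (8 genes, *Myog*, *Pax7*, *Myh3* and *Ckm* at 0 in every library) summed to 12.9 to 18.2 CPM in cKO 20% O2 and 19.8 to 48 CPM in the other groups, those of cartilage (6 genes, *Acan* and *Matn1* at 0) to 24.1 to 52.9 CPM, and those of leukocytes (7 genes, *Adgre1* at 0) to 11.3 to 25.2 CPM. *Hif1a* itself was not lower in the libraries labelled cKO. Its levels were 337, 344 and 374 CPM in Ctrl 20% O2, 496, 370 and 410 CPM in Ctrl 1% O2, 404, 298 and 435 CPM in cKO 20% O2 and 433, 402 and 509 CPM in cKO 1% O2, and the genotypes overlapped at each O2 level. Replicate 2 of cKO TFs in 20% O2 stood apart, with cytosolic ribosomal protein genes at 245 CPM (geometric mean of the list) against 118 to 164 CPM in the other 11 libraries, and values without it are given beside results that it moved most. Cells of 1 group that were fewer and cells that held less of an RNA cannot be told apart in bulk libraries. The p-values measure the spread between the 3 libraries of a group.

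No gene passed the test of the interaction. With edgeR's quasi-likelihood test, 0 of 15850 genes (0%) had an adjusted p under 0.05 with a difference of at least 1.5-fold, and every adjusted p was 1 when rounded. At an unadjusted p under 0.05 there were 367 genes (2.32%), 174 higher (1.1%) and 193 lower (1.22%) in cKO TFs. DESeq2 called 2 genes, *Serpine2* and *Atoh8*, DESeq2 with a replicate block (1 term per genotype and replicate number) called 5, and limma voom with sample weights called 0, with 2314 genes (14.6%) at an unadjusted p under 0.05. The precision bounds what could be seen: the median SE of an interaction was 0.329 on the log2 scale and the median 95% interval reached 0.716 to either side. All that follows about single interactions is therefore a description of estimates with their intervals.

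Taken singly, 1% O2 changed 298 genes in Ctrl TFs (233 rose, 1.47% of those tested, and 65 fell, 0.41%) and 333 in cKO TFs (222 rose, 1.4%, and 111 fell, 0.7%). The count in cKO TFs was 1373 without replicate 2 of cKO TFs in 20% O2, and without 1 of the other libraries of that genotype it was between 98 and 194. At an unadjusted p under 0.05, with no minimum fold, edgeR gave 2546 of 15850 genes in Ctrl TFs and 3141 in cKO TFs. So as not to favour either genotype, oxygen-responsive genes were chosen by the average of both responses: 606 genes rose (3.82%) and 518 fell (3.27%). A response was termed weaker where the cKO estimate was nearer 0 in the same direction, stronger where it was farther from 0, and reversed where the signs differed. Of the 606 that rose, 335 were weaker in cKO TFs (55.3%), 270 stronger and 1, *Atoh8*, reversed, and the median cKO response was 93.4% of the Ctrl response on the log2 scale. Of the 518 that fell, 197 were weaker (38%) and 321 stronger, with a median of 112%. These shares turned on single libraries. Without replicate 2 of cKO TFs in 20% O2, 39.7% of the genes that rose were weaker (median 115%) and 20.1% of those that fell (median 151%), while without replicate 2 of Ctrl TFs in 1% O2 64.9% of those that fell were weaker. At an unadjusted p under 0.05, 26 genes that rose were weaker and 13 stronger, and 6 that fell were weaker and 15 stronger. Among the strongest responses, of at least 2 on the log2 scale, 46 of the 85 genes that rose and 22 of the 38 that fell were weaker. In the plot of cKO against Ctrl responses, the genes scatter around the line of equal responses. The correlation r of the 2 responses was 0.58 among genes that rose and 0.487 among genes that fell. Choosing genes by the average of both responses itself favours points where both have the same sign.

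**Figure D1:**
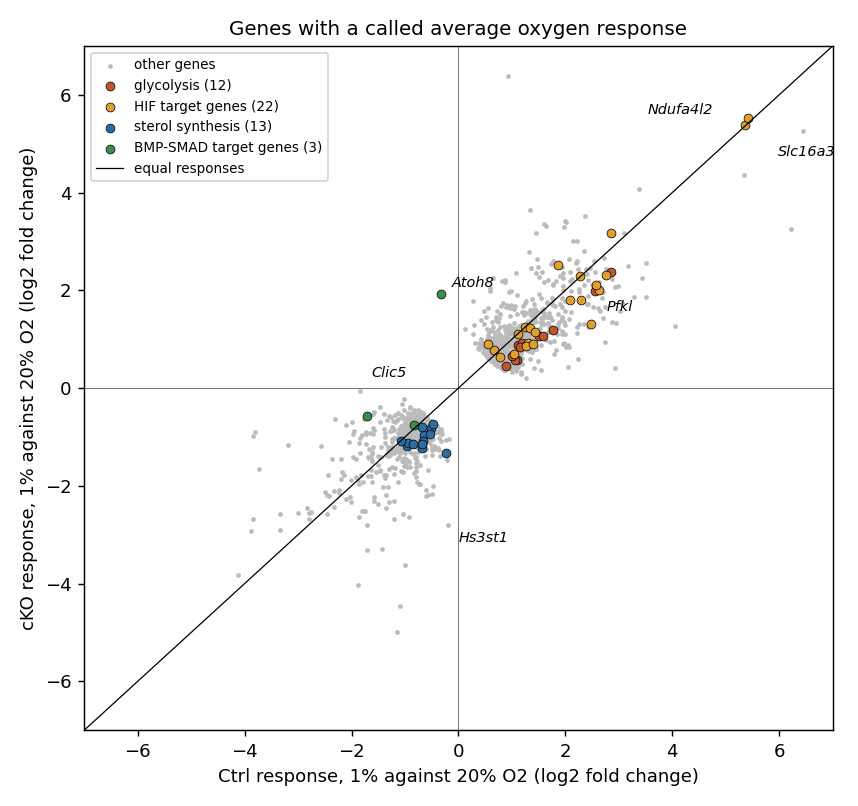
Response to oxygen of the 1124 genes with a called average response, in Ctrl TFs (x axis) and cKO TFs (y axis), each as the log2 fold change of 1% against 20% O2; 2 genes lie outside the axes at 7. Coloured points are members of 4 lists, and the line marks equal responses: all 12 glycolysis genes lie below it and all 13 sterol genes lie farther from 0 on the cKO axis than on the Ctrl axis.

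Glycolysis, the pathway that yields ATP without oxygen, had a weaker response in cKO TFs by its estimates. Of 19 glycolytic genes tested, 16 had a negative interaction, where 8958 of all 15850 genes tested had one (43.5% were positive), 4 of them at an unadjusted p under 0.05 (*Pfkl*, *Gpi1*, *Eno1* and *Ldha*) and 0 in the other direction. That count of 4 was 1 without replicate 3 of Ctrl TFs in 20% O2, replicate 1 of Ctrl TFs in 1% O2 or replicate 3 of cKO TFs in 1% O2, and 8 without replicate 1 of cKO TFs in 20% O2. The median response was 1.06 in Ctrl TFs and 0.585 in cKO TFs on the log2 scale, and the median interaction was -0.344 against -0.042 over all genes tested. In Ctrl TFs 12 members rose and in cKO TFs 7, and each of the 12 called in the average response was weaker in cKO TFs. That held for every member called under each of 23 other settings, over which the median interaction ran from -0.436 to -0.248. Per library, the geometric mean of the list was 97.5, 98.1 and 92.7 CPM in Ctrl 20% O2 and 203, 174 and 174 CPM in Ctrl 1% O2. It was 90.5, 107 and 97.4 CPM in cKO 20% O2 and 164, 144 and 152 CPM in cKO 1% O2. The genotypes overlapped in 20% O2, and in 1% O2 every cKO library lay below every Ctrl library. Gesicle-treated Ctrl TFs went from 105, 101 and 88.8 CPM to 154, 148 and 149 CPM, with a median response of 0.581.

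*Pfkl* (chr10:77986947-78010083, minus strand), which encodes the liver type of phosphofructokinase, had the smallest interaction p of the list. Its levels were 50.2, 55.2 and 47.1 CPM in Ctrl 20% O2 and 340, 282 and 279 CPM in Ctrl 1% O2. In cKO TFs they were 46.9, 43.1 and 48.1 CPM in 20% O2 and 183, 165 and 196 CPM in 1% O2. The genotypes differed little in 20% O2, and in 1% O2 the 3 cKO libraries all lay below the 3 Ctrl libraries. The log2 response was 2.56 in Ctrl TFs and 1.98 in cKO TFs (edgeR adjusted p = 6.70e-07 and 5.61e-06), an interaction of -0.58 ± 0.17 (SE) with a 95% interval of -0.95 to -0.22 and an unadjusted p = 0.00444. Gesicle-treated Ctrl TFs responded by 2.0.

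*Ldha*, the lactate dehydrogenase subunit that turns pyruvate into lactate, stood at 652, 699 and 599 CPM in Ctrl 20% O2 and 2630, 1940 and 2040 CPM in Ctrl 1% O2. In cKO TFs it stood at 634, 907 and 701 CPM in 20% O2 and 2080, 1580 and 1470 CPM in 1% O2. The groups in 1% O2 overlapped, since the highest cKO library exceeded 2 of the Ctrl libraries. Its interaction was -0.57 ± 0.26 (SE) (unadjusted p = 0.046). *Eno1* (enolase) and *Gpi1* (glucose phosphate isomerase) had interactions of -0.50 ± 0.22 (SE) and -0.49 ± 0.19 (SE) (unadjusted p = 0.0399 and 0.026), and *Pkm* (pyruvate kinase) had -0.34 ± 0.23 (SE) (unadjusted p = 0.165), or -0.141 without replicate 1 of Ctrl TFs in 1% O2.

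Lactate export and the diversion of pyruvate showed the same sign. *Slc16a3* (chr11:120948480-120960868, plus strand), which encodes the lactate exporter MCT4, was at 1.94, 1.73 and 1.75 CPM in Ctrl 20% O2 and 183, 154 and 136 CPM in Ctrl 1% O2. The cKO libraries held 2.58, 1.39 and 2.95 CPM and then 99.2, 68.4 and 97.2 CPM. All 3 cKO libraries lay below all Ctrl libraries in 1% O2, while the genotypes overlapped in 20% O2. The gene rose by 6.44 in Ctrl TFs and 5.26 in cKO TFs on the log2 scale (interaction -1.19 ± 0.34 (SE), 95% interval -1.93 to -0.44, unadjusted p = 0.00445). Gesicle-treated TFs started lower, at 1.39, 1.11 and 1.3 CPM, reached 97.7, 98.4 and 65.4 CPM, and so responded by 6.10.

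*Pdk1*, a kinase that keeps pyruvate out of the citric acid cycle, was at 14.5, 17.7 and 15.2 CPM in Ctrl 20% O2 and 97.3, 101 and 97.5 CPM in Ctrl 1% O2. The cKO values were 20.5, 12.2 and 15.1 CPM and 67.6, 55 and 68.5 CPM. Here too the cKO libraries in 1% O2 lay below those of Ctrl TFs. Its interaction was -0.64 ± 0.24 (SE) (unadjusted p = 0.0227). The glucose transporter gene *Slc2a1* had -0.50 ± 0.24 (SE) (unadjusted p = 0.0616), or -0.236 without replicate 1 of Ctrl TFs in 1% O2. *Pdk1* was at -0.418 without replicate 1 of cKO TFs in 20% O2. In the transport list, 7 of 9 members were negative with 1 at an unadjusted p under 0.05, and the median of -0.176 ran from -0.343 to -0.0531 over the other settings, the last without replicate 1 of Ctrl TFs in 1% O2. The median responses themselves, 0.339 in Ctrl and 0.374 in cKO TFs, differed in the other direction.

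The HIF target list did not follow glycolysis throughout. *Pfkl*, *Gpi1*, *Eno1*, *Ldha* and *Slc16a3* are not in it, since they are counted in the glycolysis and transport lists. Its shares therefore do not cover all HIF targets. Of 34 targets, 20 were negative and 14 positive (41.2%, beside 43.5% of all genes tested), the median interaction was -0.128, and 2 members, *Pdk1* and *P4ha1*, had an unadjusted p under 0.05, both lower. The median response was 1.18 in Ctrl TFs, 0.905 in cKO TFs and 0.733 in gesicle-treated Ctrl TFs. In Ctrl TFs 21 members rose and in cKO TFs 19, and of the 22 called on average 14 were weaker and 8 stronger. Without replicate 2 of cKO TFs in 20% O2 the median interaction was -0.0266. *P4ha1*, a collagen prolyl hydroxylase, had an interaction of -0.39 ± 0.15 (SE) (unadjusted p = 0.0244).

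Other targets had interactions near 0 or above it. *Bnip3*, which marks mitochondria for autophagy, was at 76.4, 77.1 and 88.5 CPM and 414, 362 and 401 CPM in Ctrl TFs in 20% and 1% O2. In cKO TFs it was at 74.6, 110 and 72.6 CPM and 557, 361 and 345 CPM. The genotypes overlapped at both O2 levels, the responses were 2.28 and 2.29, and the interaction of 0.01 ± 0.28 (SE) had a 95% interval of -0.60 to 0.62.

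*Ndufa4l2*, a subunit homologue that lowers complex I activity, was at 1.54, 1.55 and 2.48 CPM and 87.2, 72.7 and 79.5 CPM in Ctrl TFs, and at 1.72, 3.87 and 1.87 CPM and 119, 109 and 121 CPM in cKO TFs. In 1% O2 the cKO libraries were all above the Ctrl libraries. The responses of 5.42 and 5.53 gave an interaction of 0.11 ± 0.38 (SE) (95% interval -0.72 to 0.94), which was 0.603 without replicate 2 of cKO TFs in 20% O2 and -0.15 without replicate 3 of Ctrl TFs in 20% O2. For *Vegfa*, an angiogenic growth factor, it was 0.34 ± 0.32 (SE) (95% interval -0.35 to 1.03), or 0.0884 without replicate 3 of Ctrl TFs in 20% O2. For *Egln3*, an oxygen sensing hydroxylase, it was 0.65 ± 0.44 (SE) (95% interval -0.31 to 1.61), as large in size as that of *Pdk1*. The intervals of *Bnip3* and these 3 genes include differences of either sign, so neither equal nor unequal responses were shown. *Hif1a* had an interaction of -0.03 ± 0.23 (SE) and *Epas1* -0.08 ± 0.53 (SE).

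Genes the study also measured by qPCR were *Hif1a*, given above, *Hilpda* (lipid droplet protein), *Scx* (tenogenic transcription factor) and *Ccn3* (matricellular protein). Their interactions were 0.14 ± 0.27 (SE), 0.44 ± 0.59 (SE) and 0.04 ± 0.47 (SE), with unadjusted p = 0.611, 0.472 and 0.938. None of them passed the test. The estimate for *Scx* ran from 0.177 without replicate 1 of cKO TFs in 20% O2 to 1.06 with voom. *Hilpda* was at 13.3, 12.8 and 14.1 CPM and 19.2, 14.3 and 17 CPM in Ctrl TFs, and at 11.5, 18 and 13 CPM and 21.9, 20.5 and 16.7 CPM in cKO TFs, and its groups in 1% O2 overlapped.

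**Figure D2:**
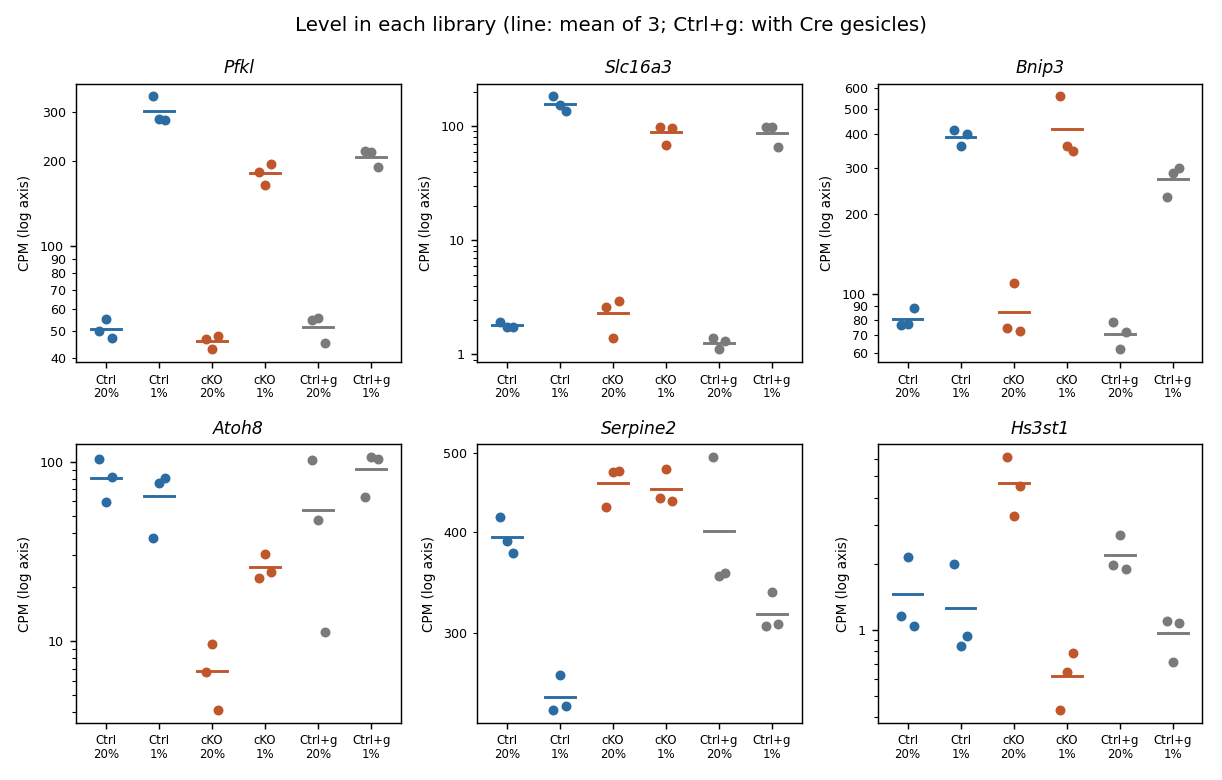
Level in CPM (log axis) of 6 genes in each library of Ctrl TFs, cKO TFs and Ctrl TFs with Cre gesicles (Ctrl+g), in 20% and 1% O2; points are libraries and lines are means of 3. In 1% O2 the cKO points of *Pfkl* and *Slc16a3* lie below all Ctrl points, those of *Bnip3* overlap with Ctrl, and *Atoh8* is lowest in cKO 20% O2.

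A stronger response in cKO TFs was seen for sterol synthesis, the pathway from acetyl-CoA to cholesterol, several steps of which use molecular oxygen. Of 24 genes tested, 23 had a negative interaction and 2, *Dhcr7* among them, an unadjusted p under 0.05. The median response was -0.429 in Ctrl TFs, -0.805 in cKO TFs and -0.691 in gesicle-treated Ctrl TFs, and the median interaction was -0.300. In Ctrl TFs 5 members fell and in cKO TFs 14, and all 13 members called on average fell more in cKO TFs by their estimates. Per library, the list stood at 96.9, 98.5 and 101 CPM in Ctrl 20% O2 and 87.8, 62 and 65.9 CPM in Ctrl 1% O2. It stood at 104, 111 and 114 CPM in cKO 20% O2 and 57.4, 66.5 and 65 CPM in cKO 1% O2. The genotypes did not overlap in 20% O2, where cKO TFs were higher, and overlapped in 1% O2. Replicate 1 of Ctrl TFs in 1% O2 was the highest of its group, and without it the median interaction was -0.157 with 0 members at an unadjusted p under 0.05. Over all other settings it was between -0.403 and -0.157.

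*Dhcr7*, which makes cholesterol in the last step of one branch, was at 38, 42.3 and 45.9 CPM and 39.3, 31.2 and 33.2 CPM in Ctrl TFs. For cKO TFs the levels were 46.7, 46.1 and 51.6 CPM and 27.4, 28.3 and 30 CPM. The drop separated the cKO groups fully. Its interaction was -0.47 ± 0.18 (SE) (unadjusted p = 0.0203). *Hmgcs1*, an early enzyme of the pathway with a high level, fell by nearly the same amount in both genotypes (-0.94 in Ctrl TFs and -1.12 in cKO TFs, interaction -0.18 ± 0.16 (SE)). Of 23 genes of fatty acid synthesis and lipid droplets, 19 were negative, with a median interaction of -0.242 (-0.397 without replicate 2 of cKO TFs in 20% O2, -0.142 without replicate 1) and 1 member at an unadjusted p under 0.05.

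Cell cycle genes had a lower response in cKO TFs too. Of 33 cell cycle genes tested, 30 were negative and 3 (*Kif20a*, *Aurka* and *Cenpa*) had an unadjusted p under 0.05. That count of 3 ran from 0 to 17 with 1 library left out (17 without replicate 3 of Ctrl TFs in 1% O2). The median response was -0.021 in Ctrl TFs, -0.922 in cKO TFs and -0.816 in gesicle-treated Ctrl TFs, giving a median interaction of -0.806. With edgeR 0 members were called in either genotype, and DESeq2 called 10 in cKO TFs. At an edgeR unadjusted p under 0.05 there were 19 in cKO TFs and 0 in Ctrl TFs, beside 3141 and 2546 of all 15850 genes tested. The list was at 21.2, 26.8 and 13.9 CPM in Ctrl 20% O2 and 27.7, 21.1 and 12.8 CPM in Ctrl 1% O2. It was at 24.8, 23.5 and 29 CPM in cKO 20% O2 and 15.1, 17.3 and 16.2 CPM in cKO 1% O2. The Ctrl groups overlapped and varied widely, and the cKO groups did not overlap. The median interaction was -0.465 without replicate 1 of Ctrl TFs in 1% O2 and -1.12 without replicate 2 of Ctrl TFs in 20% O2. *Kif20a*, a mitotic kinesin, had an interaction of -1.18 ± 0.49 (SE) (unadjusted p = 0.0326), *Aurka*, a mitotic kinase, -1.11 ± 0.50 (SE) (0.0449), and *Cenpa*, the centromeric histone, -1.19 ± 0.54 (SE) (0.0481). DNA replication genes were negative in 25 of 29 cases with a median of -0.429, which was -0.110 without replicate 1 of Ctrl TFs in 1% O2. Their median response was 0.0104 in Ctrl TFs, -0.42 in cKO TFs and -0.585 in gesicle-treated Ctrl TFs.

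Secretory and amino acid genes had positive interactions. Of 22 endoplasmic reticulum chaperones and folding enzymes, 20 were positive with a median interaction of 0.180. In Ctrl TFs 10 had an edgeR unadjusted p under 0.05, beside 2546 of all 15850 genes tested. With edgeR 5 were called as rising in cKO TFs and 0 in Ctrl TFs. DESeq2 called 8 and 1. The median response was 0.185 in Ctrl TFs, 0.407 in cKO TFs and 0.46 in gesicle-treated Ctrl TFs. *Hspa5*, the main chaperone of that compartment, had an interaction of 0.58 ± 0.25 (SE) (unadjusted p = 0.0406). Of 29 genes regulated by ATF4 or of amino acid metabolism, 25 were positive with a median of 0.255 and 0 members at an unadjusted p under 0.05. Their median response was -0.312 in Ctrl TFs, -0.0622 in cKO TFs and -0.109 in gesicle-treated Ctrl TFs. The median interaction was 0.0713 for the chaperones without replicate 1 of Ctrl TFs in 1% O2. For the ATF4 and amino acid genes it was 0.110 without replicate 3 of cKO TFs in 1% O2.

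Median responses of opposite sign were seen in the BMP-SMAD list, although the fall in Ctrl TFs was not called with edgeR. The list holds genes that SMAD1, SMAD5 and SMAD9 switch on after bone morphogenetic proteins bind their receptors. Of 20 members, 19 had a positive interaction and 6 an unadjusted p under 0.05 (*Atoh8*, *Id3*, *Id1*, *Id2*, *Smad6* and *Smad9*). That count of 6 was 2 with all 18 libraries in the fit or without replicate 3 of cKO TFs in 20% O2, and 3 without replicate 1 of Ctrl TFs in 20% O2, of Ctrl TFs in 1% O2 or of cKO TFs in 20% O2. The median response was -0.423 in Ctrl TFs and 0.382 in cKO TFs, and the median interaction of 0.769 ran from 0.516 to 1.08 over the other settings. One member, *Atoh8*, was called as rising in cKO TFs and none as falling. Of the members called in the average response, *Atoh8* was reversed. The other 2 fell in both genotypes, less in cKO TFs by their estimates. In Ctrl TFs edgeR called 0 and DESeq2 called 2. At an edgeR unadjusted p under 0.05 there were 2 in Ctrl TFs, beside 2546 of all 15850 genes tested. The list was at 16.8, 14.6 and 15.9 CPM in Ctrl 20% O2 and 7.67, 14.5 and 12 CPM in Ctrl 1% O2. Replicate 1 was the lowest in Ctrl 1% O2, and replicate 2 lay just below the lowest Ctrl 20% O2 library. It was at 6.48, 7.64 and 5.33 CPM in cKO 20% O2 and 8.69, 8.48 and 7.06 CPM in cKO 1% O2. All cKO 20% O2 libraries lay below all those of Ctrl 20% O2, and in 1% O2 the genotypes overlapped. In gesicle-treated Ctrl TFs the list went from 16.1, 12.7 and 7.58 CPM to 11.2, 17.3 and 14.2 CPM (median response 0.257). All 6 markers of pericytes or smooth muscle were detected in each group. Their sum was 95.9 to 164 CPM in Ctrl 20% O2 and 43.5 to 92.2 CPM in Ctrl 1% O2. In cKO TFs the sum was 32.6 to 55.1 CPM in 20% O2 and 31.4 to 45.3 CPM in 1% O2. Its median there was 45.4 and then 39.1 CPM, so it did not rise with the list. The part of these markers in the result was not tested.

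*Atoh8* (chr6:72206177-72235577, minus strand), a basic helix-loop-helix transcription factor downstream of BMP receptors, had the smallest interaction p of all genes with a mean of at least 1 CPM. Its levels were 103, 59.7 and 81.6 CPM in Ctrl 20% O2 and 37.5, 76.1 and 80.5 CPM in Ctrl 1% O2. In cKO TFs they were 6.76, 9.57 and 4.13 CPM in 20% O2 and 22.5, 30.7 and 24.2 CPM in 1% O2. Every cKO library was below every Ctrl library, and the 2 cKO groups did not overlap while the Ctrl groups did. The response was -0.33 in Ctrl TFs (edgeR adjusted p = 0.674) and 1.93 in cKO TFs (adjusted p = 0.0149). The interaction was 2.26 ± 0.47 (SE), with a 95% interval of 1.24 to 3.28 and an unadjusted p = 0.00041. DESeq2 gave 2.29 (adjusted p = 0.0142), and over all 23 other settings the estimate was between 1.99 and 2.91. Gesicle-treated TFs varied widely, from 102, 47 and 11.3 CPM to 63.8, 106 and 104 CPM.

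*Id3*, one of the ID proteins that block such transcription factors, was at 181, 161 and 173 CPM and 83.1, 148 and 156 CPM in Ctrl TFs. It was at 63.9, 93 and 46.7 CPM and 107, 110 and 88.3 CPM in cKO TFs. Its lowest group was cKO 20% O2, in which 1 library overlapped with cKO 1% O2. The interaction was 1.00 ± 0.36 (SE) (unadjusted p = 0.0166), beside 1.18 ± 0.46 (SE) for *Id1* (0.0257) and 1.14 ± 0.45 (SE) for *Id2* (0.0266). *Smad6*, an inhibitor of the pathway, had 1.03 ± 0.42 (SE) (0.0302) and *Smad9*, a transducer, 1.38 ± 0.59 (SE) (0.0356).

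Interferon-stimulated genes also had opposite signs, with the libraries of each group far apart. All 35 tested members had a positive interaction and 20 an unadjusted p under 0.05. The median was 2.90, from a median response of -1.33 in Ctrl TFs and 1.67 in cKO TFs. At an edgeR unadjusted p under 0.05 there were 1 member in Ctrl and 6 in cKO TFs. Neither exceeded the share of all genes tested (2546 and 3141 of 15850). With edgeR 0 members were called in either genotype after adjustment. DESeq2 called 0 and 1, and with the replicate block 8 and 5. The list was at 20.3, 34.9 and 3.09 CPM in Ctrl 20% O2 and 2.02, 17 and 2.24 CPM in Ctrl 1% O2. It was at 4.51, 3.39 and 2.95 CPM in cKO 20% O2 and 4.13, 23.4 and 2.94 CPM in cKO 1% O2. The high cKO value came from replicate 2 alone. Without it the median cKO response was -0.0046, the median interaction 1.2, with 33 members positive and 2 at an unadjusted p under 0.05. Without replicate 2 of Ctrl TFs in 20% O2 7 members had such a p, and without replicate 2 of Ctrl TFs in 1% O2 32 members did and the median was 4.99. Leukocyte markers summed to 11.3 to 25.2 CPM over the 4 groups, with *Adgre1* at 0 in each.

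*Isg15*, a ubiquitin-like protein of the interferon response, went from 16, 25.2 and 0.705 CPM in Ctrl 20% O2 to 0.14, 7.11 and 0.236 CPM in Ctrl 1% O2. In cKO TFs it went from 1.04, 1.13 and 0.708 CPM to 1.44, 22.2 and 0.86 CPM. Replicate 2 was far above the others in both groups in 1% O2, and replicate 3 far below them in Ctrl 20% O2. The interaction was 5.64 ± 2.12 (SE) (unadjusted p = 0.0206), from 2.65 without replicate 2 of cKO TFs in 1% O2 to 9.33 without replicate 2 of Ctrl TFs in 1% O2, and it was 2.71 ± 0.87 (SE) for *Ifit3*, an antiviral RNA-binding protein. Of 17 genes of MHC class I presentation, 16 were positive with a median of 0.504 and 3 members, *Psmb8*, *Psmb9* (immunoproteasome subunits) and *Erap1* (a peptide trimming protease), at an unadjusted p under 0.05, and the median was 0.273 without replicate 2 of cKO TFs in 1% O2. Of 25 cytokine, chemokine and prostaglandin genes, 17 were negative (32% positive, beside 43.5% of all genes tested) with a median of -0.355, and *Ccl11*, *Ccl2* (chemokines) and *Ptgs1* (cyclooxygenase) had an unadjusted p under 0.05. That median was -0.164 without replicate 1 of Ctrl TFs in 1% O2, the library in which *Ccl11* was high (21.6, 0.605 and 0.576 CPM in that group).

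**Figure D3:**
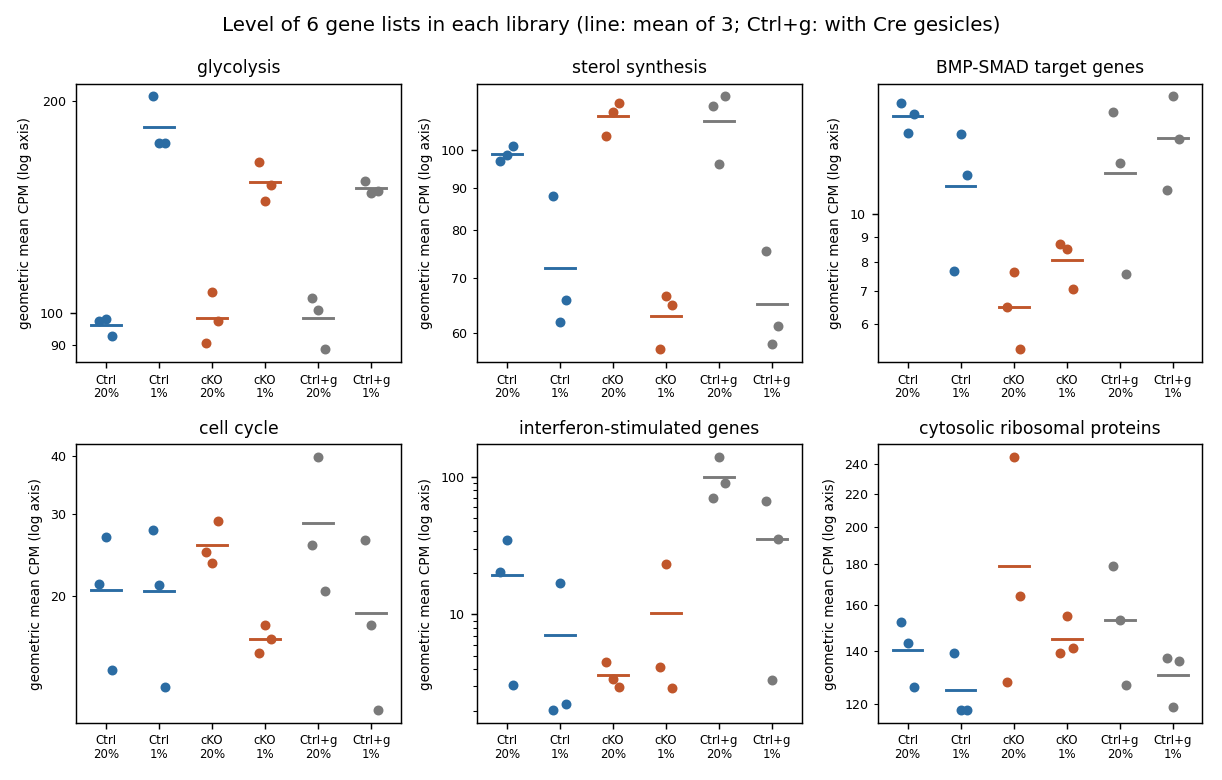
Geometric mean level in CPM (log axis) of 6 gene lists in each library of Ctrl TFs, cKO TFs and Ctrl TFs with Cre gesicles (Ctrl+g), in 20% and 1% O2; points are libraries and lines are means of 3. Glycolysis reached 174 to 203 CPM in Ctrl 1% O2 and 144 to 164 CPM in cKO 1% O2, and the ribosomal panel shows the cKO 20% O2 library at 245 CPM.

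Several matrix and tendon lists had median interactions near 0. The median interaction was 0.00783 over 20 tendon markers, 0.0253 over 22 collagen chains, 0.0217 over 13 small leucine-rich proteoglycans, 0.0147 over 28 matrix proteases and inhibitors and 0.0192 over 20 genes of the TGF-beta pathway. Each of these medians changed sign when some single library was left out. Of the 22 collagen chains, 11 were positive and 11 negative, and *Col1a1*, the chain of type I collagen with the highest level, had 0.06 ± 0.67 (SE) (95% interval -1.40 to 1.51). With edgeR 0 members of the tendon marker and collagen lists were called in either genotype. In each list 3 had an unadjusted p under 0.05 in Ctrl TFs and 2 in cKO TFs. Neither count exceeded the share of all genes tested (2546 and 3141 of 15850). DESeq2 called 1 collagen gene in Ctrl TFs, and voom 2 tendon and 4 collagen genes in Ctrl TFs and 6 and 7 in cKO TFs. At an unadjusted p under 0.05 for the interaction there were 0 tendon markers and 1 collagen gene, *Col15a1*, whose level was under 1 CPM in each library. At that p there were also 1 small leucine-rich proteoglycan, lower, 2 matrix proteases or inhibitors, higher, and 0 TGF-beta genes. Collagen modifying enzymes, given further on, were negative in 20 of 25 cases. Angiogenic factors (22 genes, median -0.000065) and NRF2 target genes (22 genes, median -0.0411, or 0.0901 without replicate 2 of cKO TFs in 20% O2) were likewise near 0. Within the latter, 7 members rose in Ctrl TFs and 6 in cKO TFs, and *Hmox1*, which degrades heme, rose by 1.78 and 1.82 on the log2 scale.

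Mitochondrial and ribosomal lists had small negative medians that followed the library that stood apart. For 34 genes of the respiratory chain and ATP synthase the median was -0.0909, for 22 genes of the citric acid cycle -0.0509 and for 25 cytosolic ribosomal protein genes -0.140. Without replicate 2 of cKO TFs in 20% O2 these were 0.142, 0.0832 and 0.182. The pentose phosphate pathway, 8 of whose 10 genes were negative, had a median of -0.297, or -0.142 without that library. By median interaction, which sets the order in the plot of list medians, interferon-stimulated, BMP-SMAD and cell cycle genes lay farthest from all genes tested.

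**Figure D4:**
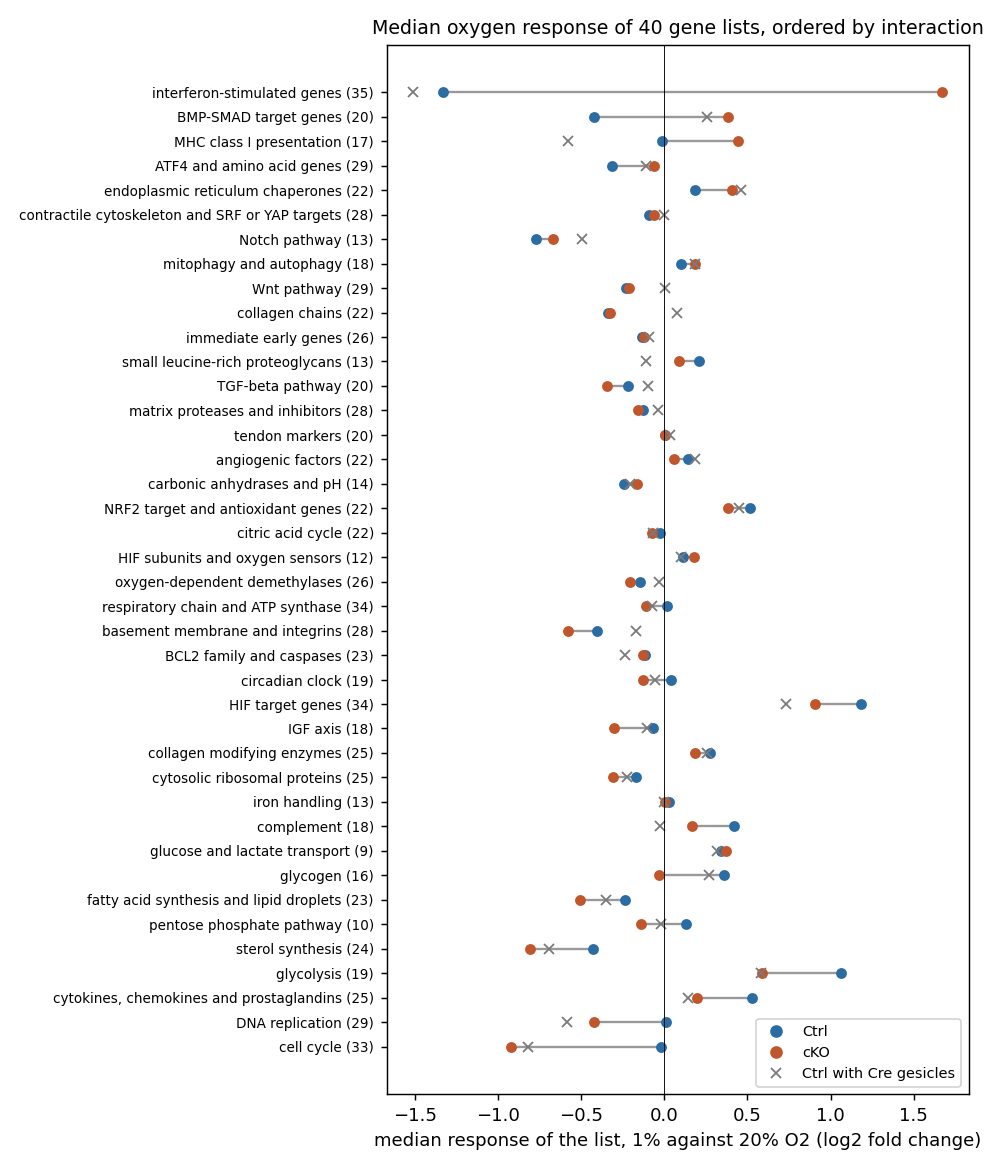
Median log2 response to 1% against 20% O2 of each gene list in Ctrl TFs, cKO TFs (dots joined by a line) and Ctrl TFs with Cre gesicles (crosses), ordered by the median interaction. Interferon-stimulated genes (-1.33 and 1.67) and BMP-SMAD target genes (-0.423 and 0.382) have medians of opposite sign, and glycolysis has a higher median in Ctrl TFs (1.06) than in cKO TFs (0.585).

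The remaining lists are given by their medians, with the range over the 23 other settings in brackets. They were -0.201 for 16 glycogen genes (-0.294 to -0.0901), 0.0575 for 18 genes of mitophagy and autophagy (-0.0298 to 0.197), -0.025 for 14 carbonic anhydrases and pH genes (-0.152 to 0.0819), -0.141 for 13 iron handling genes (-0.176 to -0.0108) and -0.0759 for 12 HIF subunits and oxygen sensors (-0.176 to 0.0791). Among signalling lists they were 0.0963 for 13 Notch genes (-0.167 to 0.487), 0.0287 for 29 Wnt genes (-0.0559 to 0.26), -0.133 for 18 genes of the IGF axis (-0.325 to 0.0708) and 0.0227 for 26 immediate early genes (-0.103 to 0.28). Among structural lists they were 0.132 for 28 contractile cytoskeleton and SRF or YAP target genes (0.076 to 0.22), -0.091 for 28 basement membrane and integrin genes (-0.247 to 0.202) and -0.139 for 25 collagen modifying enzymes (-0.238 to 0.0557). They were -0.15 for 18 complement genes (-0.398 to 0.028), -0.104 for 23 genes of the BCL2 family and caspases (-0.165 to -0.012), -0.0786 for 26 oxygen-dependent demethylases (-0.272 to 0.0319) and -0.113 for 19 circadian clock genes (-0.196 to -0.00985). Of these 16 lists, only the glycogen, iron handling, contractile, BCL2 and clock lists kept their sign under all of these settings.

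Single genes with the smallest interaction p are given next, some of them also members of the lists above. Several had a response that passed the test in 1 genotype and not in the other. With edgeR the difference itself did not pass after adjustment. *Serpine2* (chr1:79794197-79861180, minus strand), a secreted protease inhibitor, was at 417, 390 and 377 CPM and 241, 266 and 244 CPM in Ctrl TFs. The cKO values were 429, 475 and 476 CPM and 441, 478 and 437 CPM. Only Ctrl 1% O2 stood below the rest, with no overlap. It fell by 0.66 in Ctrl TFs (edgeR adjusted p = 0.00663) and its cKO response was -0.02, an interaction of 0.63 ± 0.14 (SE) (95% interval 0.32 to 0.94, unadjusted p = 0.000811). DESeq2 gave an adjusted p = 0.00151.

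*Hs3st1* (chr5:39613935-39755475, minus strand), a heparan sulfate sulfotransferase of low level, was at 1.16, 2.15 and 1.04 CPM and 1.99, 0.847 and 0.943 CPM in Ctrl TFs. In cKO TFs it was at 6.12, 3.3 and 4.52 CPM and 0.432, 0.64 and 0.784 CPM, where the shallow replicate 1 held 3 counts. The cKO groups did not overlap and the Ctrl groups did. The gene fell in cKO TFs (-2.81, adjusted p = 0.00796), with -0.20 in Ctrl TFs and an interaction of -2.61 ± 0.60 (SE) (unadjusted p = 0.00091).

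*Clic5* (chr17:44188584-44280172, plus strand), an intracellular chloride channel protein, was at 17.8, 9.14 and 7.91 CPM and 4.21, 3.45 and 2.12 CPM in Ctrl TFs. It was at 4.69, 2.97 and 4.59 CPM and 3.89, 4.42 and 3.41 CPM in cKO TFs, so Ctrl 20% O2 was the group that stood above the others. Its response was -1.83 in Ctrl TFs (adjusted p = 0.0172), -0.06 in cKO TFs and -1.70 in gesicle-treated TFs, and the interaction was 1.77 ± 0.49 (SE) (unadjusted p = 0.00321).

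*Samhd1*, which breaks down nucleotides, was at 38.6, 40 and 30.9 CPM and 24.2, 26.5 and 27 CPM in Ctrl TFs and at 21, 27 and 22 CPM and 29.7, 31.3 and 26.9 CPM in cKO TFs. The estimates had opposite signs (-0.50 and 0.33), and neither passed the adjusted test. It was 1 of 4 genes with an unadjusted p under 0.05 in each genotype and opposite signs. The others were *Srfbp1* (-0.30 and 0.30) and the predicted genes *Gm10800* and *Gm43267*, of which *Gm10800* may share reads with near-identical copies and is uncertain.

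Among genes called in the average response, further weaker ones were *Syt13*, a synaptotagmin (1.55 in Ctrl and 0.38 in cKO TFs), *Serping1*, the inhibitor of complement C1 (1.94 and 1.17), *C1qtnf2*, a C1q-related protein (1.10 and 0.41), and *Cd177* (2.92 and 0.40). Their unadjusted interaction p-values were 0.00549, 0.0158, 0.0199 and 0.0143. The histone gene *H3c14* completed the 8 with the smallest p. Its counts were 0, 0 and 0 in Ctrl 20% O2, 132, 53 and 65 in Ctrl 1% O2, 0, 143 and 34 in cKO 20% O2 and 44, 31 and 46 in cKO 1% O2, and no fold is given for a near-identical multigene family whose reads can be split.

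Further stronger ones were *Ramp1*, a receptor activity modifying protein (0.65 in Ctrl and 2.26 in cKO TFs), *Pxdc1* (0.27 and 1.11), *1700010I14Rik* (0.13 and 1.20), *Tmem100*, a membrane protein (-0.49 and -2.17) and *Rbm47*, an RNA-binding protein (-0.35 and -1.39). Their unadjusted interaction p-values were 0.00685, 0.00601, 0.008, 0.0103 and 0.0105. For *Trmt9b* and *Ppp1r3g* all cKO 20% O2 libraries held 0 counts, and the cKO 1% O2 libraries held 3, 9 and 12 and 10, 18 and 18 counts, too few for a fold.

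The rest of the 12 genes of each sign with the smallest p and a mean of at least 1 CPM lay between 0.59 and 1.14 where positive (*Ccdc115*, *Srfbp1*, *Rtn4r* and *Amz1*). Where negative they lay between -1.74 and -0.56 (*Hic1*, *Fyb2*, *Mfsd9*, *Sipa1*, *Masp1*, *Zeb1*, *Rnf145* and the pseudogene *Rpl27-ps3*, whose reads may belong to its parent gene). *Hic1* and *Zeb1*, transcriptional repressors, fell in cKO TFs by 0.85 and 0.73 on the log2 scale (edgeR adjusted p = 0.0375 and 0.0251) and were 0.17 and -0.10 in Ctrl TFs. *Ccdc115* rose in cKO TFs by 0.77 (adjusted p = 0.0129) and was 0.08 in Ctrl TFs.

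Gesicle-treated Ctrl TFs had their own libraries at both O2 levels, and in a fit of all 18 libraries 266 genes rose (1.64% of 16174) and 124 fell (0.767%). The test of the cKO response against theirs called 0 genes with edgeR, with 333 (2.06%) at an unadjusted p under 0.05. Across the 23 other settings, the median interaction of tendon markers ran from -0.210 to 0.209 and that of collagen chains from -0.241 to 0.234. The lists in the plot of medians under every setting kept their sign. They were picked for medians far from 0 in these same libraries, so a kept sign was likely beforehand.

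**Figure D5:**
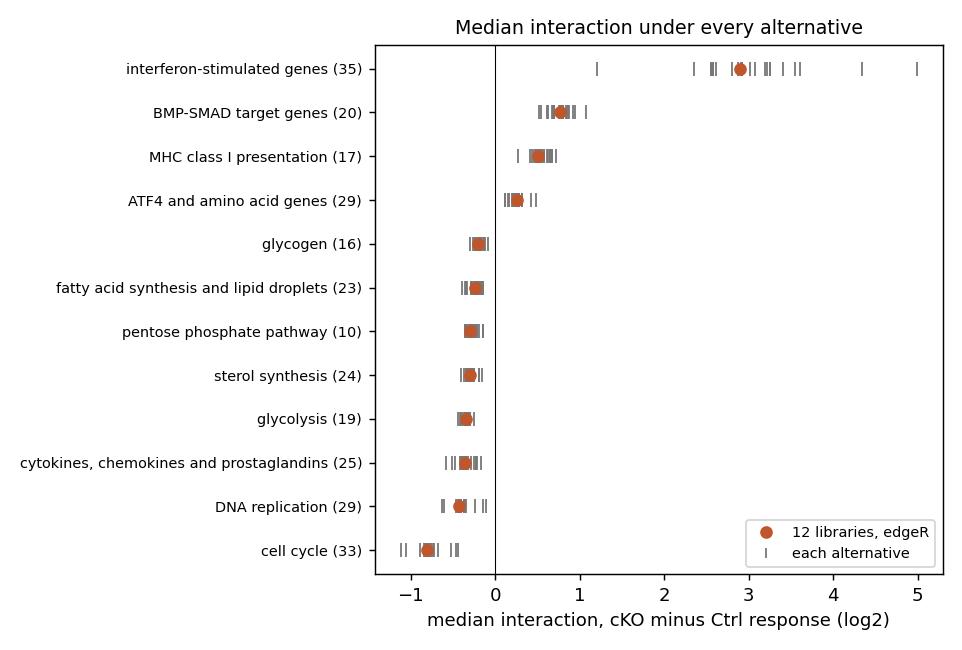
Median interaction (log2, cKO response minus Ctrl response) of the 12 gene lists whose median lay farthest from 0, in the fit as reported (dots) and in 23 other settings (ticks), with the number of genes in brackets. Glycolysis (-0.436 to -0.248), sterol synthesis (-0.403 to -0.157), cell cycle (-1.12 to -0.439), BMP-SMAD (0.516 to 1.08) and interferon-stimulated genes (1.2 to 4.99) stayed on 1 side of 0 in all of them.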

How the data were processed

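Poly-A RNA-seq libraries of mouse tail TFs (12 of Ctrl and cKO TFs, 6 of gesicle-treated Ctrl TFs) were analysed. The authors trimmed reads with cutadapt, checked them with FastQC 0.11.8 and MultiQC 1.20, mapped them to GRCm38 with STAR and deposited RSEM 1.3.3 expected counts per gene, all whole numbers and without normalization. The 4 transgene rows were left out of the tests. Library totals ranged from 6857558 to 42964226 in the 12 libraries, and a floor of 3 counts, which covers counting error only, was used for low values.

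Groups were taken from the sample labels. Low genes were removed by filterByExpr. The main test was the quasi-likelihood F test of edgeR 4.0.16 under R 4.3.3, with TMM factors and a coefficient for each group, and calls needed a fold of at least 1.5 and p under 0.05 after Benjamini-Hochberg adjustment. CPM values were scaled with TMM. SE is the log2 value divided by the square root of F, and intervals are 95%. Gene positions are from GENCODE on GRCm38, and promoters from RefSeq on GRCm38.p6 (11074 of the tested genes matched by symbol). Lists were described by counts and medians, with no test. The edgeR, DESeq2 and voom steps were tested on simulated data with 200 changed genes. The simulated libraries were drawn independently, so they do not cover a library that stands apart or a pairing of libraries.

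Gene lists (40 lists, 850 genes tested, 34 genes in more than 1) and members were chosen with earlier results of these data known. Named genes were the 12 of each sign with the smallest unadjusted interaction p at a mean of at least 1 CPM, the 8 weaker and 8 stronger average-called genes with the smallest p, genes of opposite sign at an unadjusted p under 0.05 in each genotype, in each list the 2 highest members and the smallest p of each direction, HIF genes, qPCR genes and markers. *Id1*, *Id2*, *Smad6*, *Smad9*, *Gpi1*, *Ldha*, *Isg15*, *Erap1*, *Psmb9*, *Aurka*, *Cenpa*, *Ccl2* and *Ptgs1* lie outside this rule and were picked with their values known. Values of some single genes are not reported here. Alternatives were DESeq2 1.42.0, limma voom (limma 3.58.1) with sample weights, RLE factors, other filters, replicate blocks, thinned counts, all 18 libraries in 1 fit and each library left out. Leaving out replicate 2 of cKO TFs in 20% O2 together with replicate 1 of cKO TFs in 1% O2 was chosen after seeing the data.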

Additional observations from a re-analysis of the deposited data

Results flagged for a closer look

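The count table also held rows for transgenes, which no comparison used. *Cre* had 15 counts summed over the 6 cKO libraries, with at least 1 count in 5 of them, and 0 in the 6 Ctrl libraries without gesicles. *eGFP* had 14 counts over the cKO libraries, again in 5 of 6, and 0 in the same Ctrl libraries. *tdTomato* had 8 counts over the 6 gesicle-treated libraries, in 5 of them, and 0 in the 12 others.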

How the results depend on the processing

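The number of genes called in the interaction, 0 with edgeR, was 2 with DESeq2 and 5 with DESeq2 and the replicate block, and 0 to 1 with each library left out. At an unadjusted p with the minimum fold, 292 genes became 738 without a filter on low counts, 1237 with voom weights, 588 without replicate 2 of cKO 20% O2 and replicate 1 of cKO 1% O2, and 200 to 565 with 1 library left out. The response of Ctrl TFs (298 calls) gave 696 with DESeq2, 1543 with voom, 678 without that pair of libraries and 116 to 447 with 1 library left out. That of cKO TFs (333) gave 886 with DESeq2, 511 without the filter, 2718 with voom, 893 without the pair and 98 to 1373 with 1 left out. The average response (1124) gave 2517 with voom, 1958 without a minimum fold, 2024 at an unadjusted p with it and 739 to 1765 with 1 left out. The share weaker among genes that rose (55.3%) was 44.1% with voom and 39.7% to 60.6% with 1 left out. Among genes that fell (38%) it was 25.2% without the pair and 20.1% to 64.9% with 1 left out. With a replicate block of 1 term per genotype and replicate number the unadjusted interaction count was 454 (edgeR) and 482 (DESeq2), and with the number alone as the block across genotypes 308 (edgeR). With the former, DESeq2 called 963 genes in Ctrl and 1074 in cKO TFs, and 49.7% of the genes that fell were weaker. The labels do not say that a number marks 1 mouse, and the main fit used no pairing, while the paper states a paired design. Same-numbered libraries deviated together with r of 0.282 to 0.472 in Ctrl TFs and 0.092 to 0.386 in cKO TFs. For differently numbered libraries r was -0.277 to -0.0498 in Ctrl TFs and -0.269 to 0.106 in cKO TFs. Whether the numbers mark pairs was not tested, so the fits with a block stand beside the main fit. Interactions near 0 changed sign for single genes. With counts thinned to the smallest library *Egln3* was -0.0593 and *Hilpda* -0.119. *Epas1* was 0.01, 0.00255, 0.0167 and 0.0175 with the DESeq2 block, the edgeR block, voom and without the pair, *Hif1a* 0.0151 with the DESeq2 block and *Col1a1* -0.179 with voom. With 1 library or that pair left out, *Bnip3* ran from -0.214 to 0.25, *Ccn3* ran from -0.205 to 0.357, *Col1a1* ran from -0.399 to 0.522, *Epas1* ran from -0.357 to 0.243, *Hif1a* ran from -0.159 to 0.0901, *Hmox1* ran from -0.118 to 0.213, and *Ndufa4l2* ran from -0.15 to 0.603. The cause of these changes was not tested.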
